A study of Homo sapiens with 12 samples.

Results

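The genes described here were picked by symbol. Most encode the machinery that carries proteins into mitochondria or CHCHD proteins of the space between the mitochondrial membranes. Not every gene with such a symbol has that role, for example CHCHD1, a mitochondrial ribosomal protein. All probes with a single gene symbol starting with TIMM, TOMM or CHCHD were taken, pseudogenes left out, which gave 40 probes of 32 genes among 47230 probes, of which those named belong to 18811 genes. Of these, 37 probes of 30 genes were detected (detection p under 0.05) on at least 2 arrays and are the members below, and each of the 37 was detected on all 12 arrays. The kept probes were 17 of 13 TIMM genes, 11 of 9 TOMM genes and 9 of 8 CHCHD genes. The 3 probes not kept were the TIMM13 probe, detected on 0 arrays, and both TOMM20L probes, detected on 0 arrays and 1 array.

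Expression was measured on 12 single-colour Illumina BeadChip arrays in cells of the established human melanoma line WM35. The control group was treated with the vehicle DMSO (n = 2 arrays) for a time that its labels do not state, so the same 2 arrays served every comparison with control. The drugs were trifluridine (TFT), a thymidine analog that is built into DNA, for 8 h (n = 3) or 24 h (n = 2), and lactimidomycin (LTM), which blocks the elongating ribosome, for 8 h (n = 3) or 24 h (n = 2). The submitters dosed each drug at the concentration giving 75% inhibition over 72 h. Every array came from a single cell line, no label states that replicates were separate cultures, and p-values therefore measure only the spread between these samples. The series was made to derive drug signatures from the cell line. All arrays lay on 1 chip with the groups in neighbouring positions, so chip position and group cannot be told apart.

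The arrays had mean signals from 314.62 to 415.44 and detected between 19485 and 20551 probes each. Of the melanocyte and melanoma markers, SOX10 and MITF were detected on 12 arrays, with SOX10 at 10.36 to 11.59. PAX3 was detected on at most 11 arrays, PMEL on 4, and MLANA, TYR, TYRP1, S100B and GPR143 on 0, and DCT had no named probe. All 3 keratinocyte markers were detected on 0 arrays, as were the blood and endothelial markers except CD14, on 12 arrays at 5.06 to 5.77, and PECAM1, on 1 array. Values throughout are log2 intensities after background correction and quantile normalization, so they are relative to the other RNAs of a sample, and less RNA per cell cannot be told apart from fewer cells making it.

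Over all probes 3 arrays went against their labels, and over the member probes 2 of them did. Correlations were taken across the 37 probes, each centred on its own mean. For the array labelled TFT 8 h replicate 3, r was 0.81 and 0.77 to LTM 8 h replicates 2 and 3 but -0.32 and -0.49 to TFT 8 h replicates 1 and 2. For that labelled LTM 8 h replicate 1, r was 0.91 to TFT 24 h replicate 2 and -0.46 and -0.12 to its own group. For that labelled TFT 24 h replicate 1, r was 0.89 and 0.72 to TFT 8 h replicates 1 and 2 and 0.71 to TFT 24 h replicate 2, and over all probes 0.66, 0.66 and 0.44. These coefficients run across probes of the same arrays, which are not independent, and carry no test. Groups were kept as labelled, and counts of members that passed are also given for the 9 arrays without these 3, with single values for some probes. With 9 arrays TFT 24 h has 1 array, which was assumed to vary like the other groups. The 3 arrays were picked by their profiles in these same data, so leaving them out tends to lower the spread within groups. Calls on 9 arrays are therefore descriptive and give no independent evidence.

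**Figure D1:**
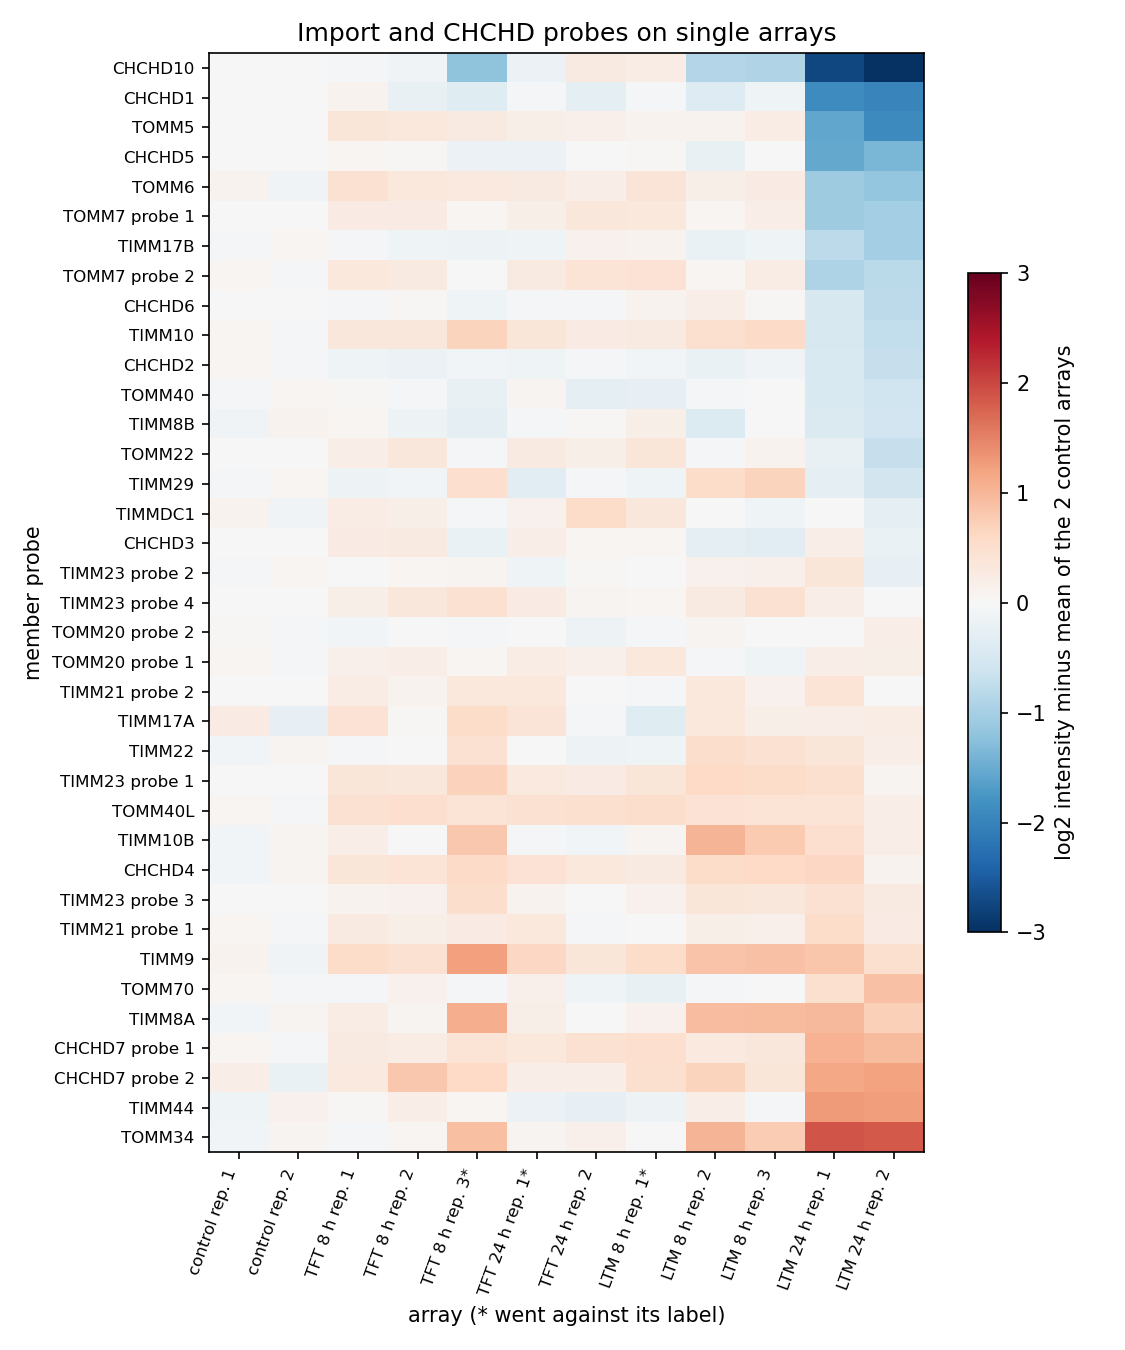
Log2 intensity of each of the 37 member probes (rows) on each of the 12 arrays (columns), minus the mean of the 2 control arrays, on a colour scale from -3 (blue) to 3 (red). Rows are ordered by the difference of LTM 24 h from control, from CHCHD10 at -2.85 to TOMM34 at 1.87, and asterisks mark the 3 arrays that went against their labels.

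Nearly all mitochondrial proteins are made in the cytosol and imported. The TOM complex of the outer membrane is the common entry gate, the TIM23 complex moves proteins with a targeting sequence into the matrix or inner membrane, and the TIM22 complex, fed by small TIM chaperones, inserts carrier proteins into the inner membrane. Many small proteins with paired cysteines, including CHCHD proteins, are instead trapped in the intermembrane space by oxidative folding through CHCHD4, the human counterpart of yeast Mia40.

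The stretches of 250 bases before the annotated start are shown for CHCHD10, TOMM6, TOMM34 and TIMM44, on RefSeq GRCh38.p14, in the direction of the gene. They were picked from the members that passed for LTM 24 h against control with a log2 fold change of at least 1 in size. Capitals mark the ETS motif CCGGAAG in either orientation, and all other bases are in lower case. CHCHD1 and CHCHD5, which fell more than TOMM6, are not shown, and their promoters did not hold this motif.
CHCHD10 (chr22:23767973-23768222, minus strand): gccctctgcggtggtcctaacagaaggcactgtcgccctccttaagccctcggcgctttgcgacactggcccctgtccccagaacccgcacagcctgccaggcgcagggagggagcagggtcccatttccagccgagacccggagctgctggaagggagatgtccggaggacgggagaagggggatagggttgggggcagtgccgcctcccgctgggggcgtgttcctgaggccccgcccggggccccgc
TOMM6 (chr6:41787444-41787693, plus strand): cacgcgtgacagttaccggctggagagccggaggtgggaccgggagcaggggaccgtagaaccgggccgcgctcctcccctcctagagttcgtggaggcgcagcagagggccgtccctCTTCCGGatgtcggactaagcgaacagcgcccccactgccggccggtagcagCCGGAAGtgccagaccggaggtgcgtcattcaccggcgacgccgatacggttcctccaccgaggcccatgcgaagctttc
TOMM34 (chr20:44960398-44960647, minus strand): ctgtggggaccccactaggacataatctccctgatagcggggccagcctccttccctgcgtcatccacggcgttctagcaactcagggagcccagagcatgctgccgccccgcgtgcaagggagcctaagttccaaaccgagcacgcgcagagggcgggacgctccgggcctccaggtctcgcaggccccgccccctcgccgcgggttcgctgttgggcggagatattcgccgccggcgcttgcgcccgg
TIMM44 (chr19:7943667-7943916, minus strand): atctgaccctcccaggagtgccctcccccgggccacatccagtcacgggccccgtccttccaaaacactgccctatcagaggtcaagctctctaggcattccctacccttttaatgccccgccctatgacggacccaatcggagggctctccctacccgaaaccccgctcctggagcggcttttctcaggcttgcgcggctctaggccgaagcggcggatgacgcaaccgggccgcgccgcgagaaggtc
RefSeq promoters were found for 27 of the 30 member genes, and CHCHD7, TIMM8B and TOMM5 had no entry. The median GC content of the 27 was 63.6%, against 64.4% for the promoters of 9679 genes measured here. The ETS motif CCGGAAG, searched on both strands, was in 9 of 27 member promoters (33.3%), in 15% of the promoters of measured genes and in 8.82% of all 27303 promoters. Among the genes whose probe fell after LTM for 24 h, 3 of 10 with a promoter held it, and among those that rose 1 of 3 did. The CCAAT box, left in lower case above, was in 37% of member promoters and in 35.5% of those of measured genes, with 4 of 10 that fell and 1 of 3 that rose. The E-box CACGTG was in 1 member promoter, that of TOMM20 (3.7%, against 8.83% of those of measured genes), and the ATF4 element TGATGNAAT was in 0 of 27 (against 0.475%). These letters describe the windows only, and no binding was measured.

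LTM for 24 h changed 17 of the 37 member probes (15 genes), 5 upward and 12 downward. The small TOM subunits TOMM5, TOMM6 and TOMM7 and the CHCHD proteins CHCHD10, CHCHD1 and CHCHD5 fell, between 1.83-fold and 7.20-fold. TOMM34, TIMM44, CHCHD7 and TOMM70 rose, between 1.60-fold and 3.65-fold. By limma with Benjamini-Hochberg adjustment over 24325 probes, 13.5% of member probes were higher, against 20.0% of all probes, and 32.4% were lower, against 20.9%. In either direction the shares were 45.9% and 40.9%, so the share of changed members was close to that of the whole array. The median log2 intensity per array was 9.713 to 10.12 over the members and 6.442 over all kept probes. These shares therefore compare sets of unlike brightness, and shares among probes of like brightness were not taken. The median log2 fold change was 0.10 over the members and -0.05 over all probes, and with median scaling -0.13 and -0.11. Over the 5306 probes with a mean log2 intensity of at least 9 it was -0.14, and -0.36 with median scaling. Neither group holds any of the 3 arrays. Quantile normalization was run once over all 12 arrays, and apart from it the fold changes do not depend on these 3. The spread pooled over all groups does, and on 9 arrays all 17 calls remained and 7 more probes passed (24, against 54.3% of all probes).

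**Figure D2:**
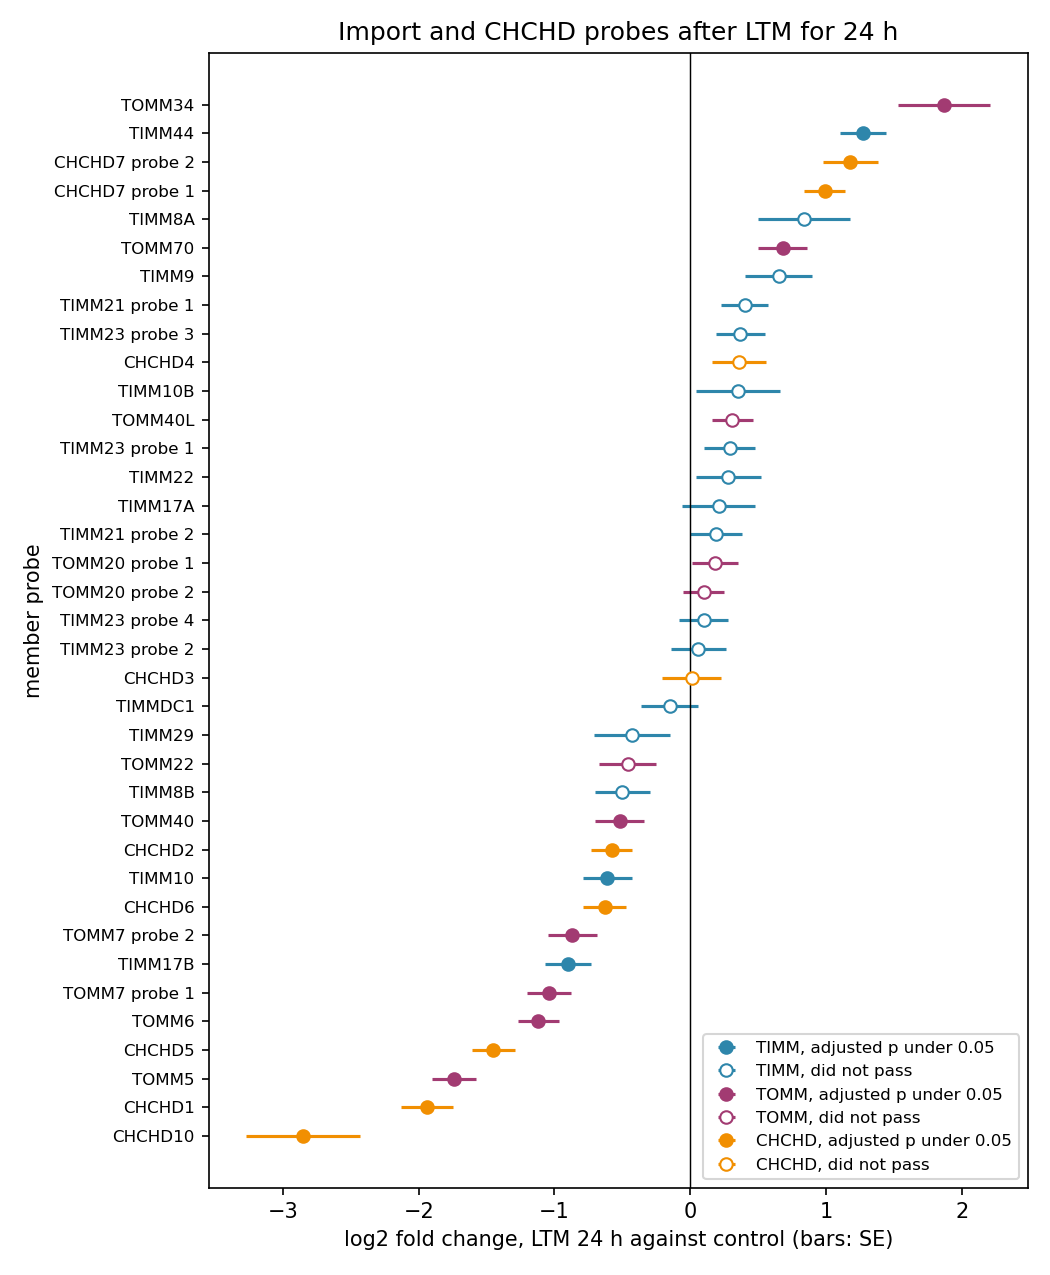
Log2 fold change of each member probe for LTM 24 h against control (n = 2 arrays each), with bars giving the SE of the limma fit, filled points for an adjusted p under 0.05 and open points for probes that did not pass. The 12 filled points on the left run from CHCHD10 at -2.85 to TOMM40 at -0.52, and the 5 on the right from TOMM70 at 0.68 to TOMM34 at 1.87.

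In the TOM complex, the 3 small subunits that surround and stabilise the channel fell. TOMM5 was at 11.67 and 11.68 on the control arrays, 12.04, 11.99 and 11.93 on TFT 8 h, 11.85 and 11.83 on TFT 24 h, 11.79, 11.79 and 11.90 on LTM 8 h, and 10.12 and 9.75 on LTM 24 h. Both LTM 24 h arrays lay below all 10 others. Its log2 fold change against control was -1.74 (SE 0.16, limma adjusted p = 5.21e-05), or 3.34-fold lower. TOMM6 was at 11.88 and 11.68 on control, 12.23, 12.09 and 12.08 on TFT 8 h, 12.04 and 11.98 on TFT 24 h, 12.17, 11.96 and 12.02 on LTM 8 h, and 10.71 and 10.60 on LTM 24 h. It too was lowest on the LTM 24 h arrays, 2.18-fold below control (log2 fold change -1.12, SE 0.15, limma adjusted p = 0.000311). TOMM7 probe ILMN_1674069 was at 12.68 and 12.72 on control, 12.94, 12.95 and 12.77 on TFT 8 h, 12.87 and 13.03 on TFT 24 h, 13.02, 12.74 and 12.90 on LTM 8 h, and 11.63 and 11.69 on LTM 24 h. The same split was seen with the second TOMM7 probe, ILMN_2087060, at 12.47 and 12.37 on control, 12.74, 12.70 and 12.44 on TFT 8 h, 12.69 and 12.82 on TFT 24 h, 12.86, 12.47 and 12.65 on LTM 8 h, and 11.50 and 11.60 on LTM 24 h. The probes fell 2.06-fold and 1.83-fold (limma adjusted p = 5e-04 and 0.00263).

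The channel and the receptors of the TOM complex had log2 differences from -0.52 to 0.68. TOMM40, which forms the channel, was at 12.44 and 12.58 on control, 12.53, 12.47 and 12.28 on TFT 8 h, 12.60 and 12.24 on TFT 24 h, 12.27, 12.48 and 12.53 on LTM 8 h, and 12.05 and 11.92 on LTM 24 h. Its log2 fold change of -0.52 passed (SE 0.18, limma adjusted p = 0.0352) but did not pass when any 1 of the control or LTM 24 h arrays was left out (adjusted p between 0.0673 and 0.17). TOMM22, the central receptor, was at 11.52 and 11.56 on control, 11.75, 11.87 and 11.47 on TFT 8 h, 11.83 and 11.71 on TFT 24 h, 11.90, 11.49 and 11.65 on LTM 8 h, and 11.32 and 10.85 on LTM 24 h. Its log2 fold change of -0.46 did not pass on 12 arrays (limma adjusted p = 0.103) and passed on 9 arrays (adjusted p = 0.0391). TOMM70, a receptor for carrier precursors held by chaperones, was at 10.52 and 10.39 on control, 10.41, 10.57 and 10.40 on TFT 8 h, 10.60 and 10.32 on TFT 24 h, 10.24, 10.40 and 10.43 on LTM 8 h, and 10.93 and 11.33 on LTM 24 h. It rose 1.60-fold (log2 fold change 0.68, SE 0.18, limma adjusted p = 0.0113). That call was lost without control replicate 2 (adjusted p = 0.078), without LTM 24 h replicate 2 (adjusted p = 0.104) and with median scaling (adjusted p = 0.0728). TOMM20, the presequence receptor, was with probe ILMN_1679796 at 11.80 and 11.70 on control, 11.91, 11.94 and 11.82 on TFT 8 h, 11.98 and 11.91 on TFT 24 h, 12.06, 11.72 and 11.63 on LTM 8 h, and 11.95 and 11.92 on LTM 24 h. Its probe ILMN_3251472 was at 12.80 and 12.72 on control, 12.67, 12.74 and 12.70 on TFT 8 h, 12.75 and 12.60 on TFT 24 h, 12.73, 12.84 and 12.74 on LTM 8 h, and 12.78 and 12.95 on LTM 24 h. Neither TOMM20 probe passed (limma adjusted p = 0.425 and 0.616), and the sign of both differences, 0.18 and 0.10, turned under median scaling.

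TOMM34, a cytosolic co-chaperone that binds HSP70 and HSP90 and takes part in precursor transport without being a TOM subunit, rose the most. It was at 12.26 and 12.44 on control, 12.30, 12.40 and 13.24 on TFT 8 h, 12.43 and 12.50 on TFT 24 h, 12.33, 13.37 and 13.09 on LTM 8 h, and 14.23 and 14.20 on LTM 24 h. Both LTM 24 h arrays lay above all others, and the array labelled TFT 8 h replicate 3 lay with LTM 8 h replicates 2 and 3. The log2 fold change of LTM 24 h was 1.87 (SE 0.34, limma adjusted p = 0.00157), or 3.65-fold higher, and was 1.19 with median scaling in place of quantile normalization.

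In the TIM23 complex, TIMM44, which tethers the matrix HSP70 motor to the channel, rose. It was at 8.71 and 8.99 on control, 8.88, 9.04 and 8.90 on TFT 8 h, 8.67 and 8.60 on TFT 24 h, 8.69, 9.06 and 8.80 on LTM 8 h, and 10.13 and 10.10 on LTM 24 h. The LTM 24 h arrays stood more than 1 log2 unit above every other array, and the rise against control was 2.41-fold (log2 fold change 1.27, SE 0.17, limma adjusted p = 0.000289). TIMM17B, a structural partner of the channel, fell by 0.90 on the log2 scale (SE 0.17, limma adjusted p = 0.00177), with 9.43 and 9.58 on control and 8.72 and 8.48 on LTM 24 h. Its paralog TIMM17A was at 6.67 and 6.18 on control, 6.86, 6.45 and 6.97 on TFT 8 h, 6.80 and 6.37 on TFT 24 h, 6.06, 6.74 and 6.59 on LTM 8 h, and 6.62 and 6.64 on LTM 24 h. The TIMM17A groups overlapped, and its difference of 0.21 did not pass (limma adjusted p = 0.586).

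The channel subunit TIMM23 had 4 probes, and whether they also read its near-identical copy TIMM23B was not tested. Probe ILMN_1679555 was at 12.74 and 12.71 on control, 12.84, 12.85 and 13.26 on TFT 8 h, 12.83 and 12.70 on TFT 24 h, 12.87, 13.08 and 13.08 on LTM 8 h, and 13.19 and 13.01 on LTM 24 h. Probe ILMN_1664231 was at 10.69 and 10.68 on control, 11.05, 11.02 and 11.37 on TFT 8 h, 10.99 and 10.93 on TFT 24 h, 11.06, 11.27 and 11.23 on LTM 8 h, and 11.17 and 10.77 on LTM 24 h. With this probe all 10 treated arrays were above control, and with both probes the array labelled TFT 8 h replicate 3 was highest. Probe ILMN_1773493 was at 10.52 and 10.50 on control, 10.69, 10.84 and 10.96 on TFT 8 h, 10.75 and 10.60 on TFT 24 h, 10.56, 10.77 and 10.95 on LTM 8 h, and 10.72 and 10.49 on LTM 24 h. Probe ILMN_1673746 was at 8.63 and 8.75 on control, 8.68, 8.74 and 8.77 on TFT 8 h, 8.54 and 8.72 on TFT 24 h, 8.67, 8.82 and 8.85 on LTM 8 h, and 9.06 and 8.43 on LTM 24 h. With these 2 probes the LTM 24 h arrays overlapped with control. The 4 probes had, in this order, log2 differences of 0.37, 0.29, 0.10 and 0.06 for LTM 24 h against control, and none of the 4 passed limma on 12 arrays (adjusted p between 0.127 and 0.845). The first of these passed on 9 arrays (adjusted p = 0.0286). Median scaling turned the sign of ILMN_1679555 to -0.19 and that of ILMN_1773493 to -0.07. TIMM21, which links TIM23 to the TOM complex and to respiratory chain assembly, had differences of 0.40 and 0.19 that did not pass on 12 arrays (limma adjusted p = 0.0903 and 0.477).

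The TIM22 route was read through its small TIM chaperones and its membrane subunits. TIMM10, which forms a chaperone ring with TIMM9, was at 11.62 and 11.48 on control, 11.88, 11.88 and 12.22 on TFT 8 h, 11.91 and 11.79 on TFT 24 h, 11.81, 12.02 and 12.12 on LTM 8 h, and 11.08 and 10.80 on LTM 24 h. All arrays of both drugs lay above control except those of LTM 24 h, which lay below. The fall of 0.61 on the log2 scale at 24 h (SE 0.18, limma adjusted p = 0.0212) did not pass without control replicate 1, control replicate 2 or LTM 24 h replicate 2 (adjusted p = 0.124, 0.0586 and 0.145). TIMM9 itself was at 8.80 and 8.59 on control, 9.23, 9.16 and 9.91 on TFT 8 h, 9.32 and 9.06 on TFT 24 h, 9.24, 9.54 and 9.56 on LTM 8 h, and 9.52 and 9.17 on LTM 24 h. All 10 treated arrays were above control, with the array labelled TFT 8 h replicate 3 the highest. The TIMM9 difference of 0.65 for LTM 24 h did not pass on 12 arrays (limma adjusted p = 0.0605) and passed on 9 (adjusted p = 0.00424).

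TIMM8A, a small TIM mutated in deafness-dystonia syndrome, was at 8.01 and 8.16 on control, 8.32, 8.16 and 9.17 on TFT 8 h, 8.26 and 8.08 on TFT 24 h, 8.22, 9.01 and 9.04 on LTM 8 h, and 9.05 and 8.80 on LTM 24 h. The 5 highest arrays were both LTM 24 h arrays, LTM 8 h replicates 2 and 3 and the array labelled TFT 8 h replicate 3. The LTM 24 h difference of 0.84 did not pass on 12 arrays (limma adjusted p = 0.067) and passed on 9 (adjusted p = 0.000551). TIMM8B, a paralog of TIMM8A, was at 7.20 and 7.40 on control, 7.36, 7.14 and 7.02 on TFT 8 h, 7.26 and 7.34 on TFT 24 h, 7.46, 6.88 and 7.30 on LTM 8 h, and 6.87 and 6.73 on LTM 24 h. Its difference had the opposite sign, at -0.50 (limma adjusted p = 0.0734 on 12 arrays and 0.0293 on 9). TIMM22, the channel of the complex, and TIMM29, a subunit found in metazoans, had differences of 0.28 and -0.43 that did not pass on 12 arrays (limma adjusted p = 0.392 and 0.264), and TIMM29 passed on 9 (adjusted p = 0.0237).

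**Figure D3:**
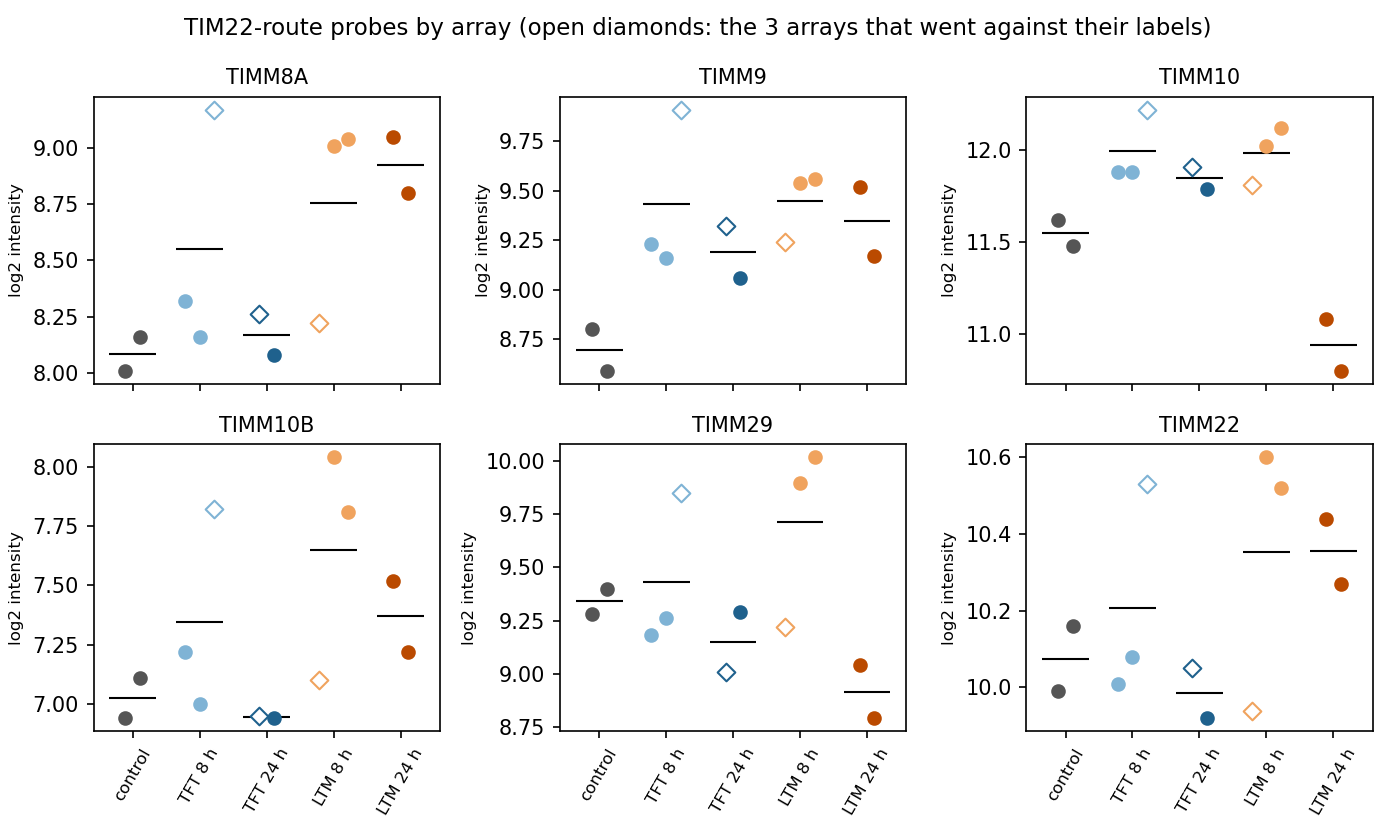
Log2 intensity of TIMM8A, TIMM9, TIMM10, TIMM10B, TIMM29 and TIMM22 on each array by labelled group (points are arrays, lines are group means, open diamonds are the 3 arrays that went against their labels). The diamond in TFT 8 h sits with the 2 filled LTM 8 h points, for example at 9.17 against 9.01 and 9.04 for TIMM8A.

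Among the CHCHD proteins, CHCHD10 had the largest difference of all members. This paralog of CHCHD2, mutated in motor neuron disease and myopathy, was at 8.99 and 9 on control, 8.95, 8.89 and 7.79 on TFT 8 h, 8.81 and 9.26 on TFT 24 h, 9.23, 8.12 and 8.09 on LTM 8 h, and 6.27 and 6.03 on LTM 24 h. The arrays fell into 3 levels, with LTM 24 h lowest, LTM 8 h replicates 2 and 3 and the array labelled TFT 8 h replicate 3 between, and the other 7 arrays highest. At 24 h of LTM it was 7.20-fold lower than control (log2 fold change -2.85, SE 0.42, limma adjusted p = 0.000489). CHCHD2, mutated in some inherited Parkinson disease, was at 13.65 and 13.56 on control, 13.48, 13.42 and 13.52 on TFT 8 h, 13.49 and 13.55 on TFT 24 h, 13.52, 13.42 and 13.50 on LTM 8 h, and 13.15 and 12.90 on LTM 24 h. It fell by 0.58 on the log2 scale (SE 0.15, limma adjusted p = 0.0093), and by 1.14 with median scaling. That call was lost without control replicate 1 (adjusted p = 0.0682) or LTM 24 h replicate 2 (adjusted p = 0.0728).

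CHCHD1, a protein of the small mitochondrial ribosomal subunit, was at 7.97 and 7.97 on control, 8.08, 7.74 and 7.59 on TFT 8 h, 7.93 and 7.70 on TFT 24 h, 7.93, 7.58 and 7.83 on LTM 8 h, and 6.09 and 5.98 on LTM 24 h. CHCHD5, a small intermembrane space protein, was at 9.16 and 9.19 on control, 9.24, 9.21 and 9.01 on TFT 8 h, 9 and 9.15 on TFT 24 h, 9.21, 8.95 and 9.18 on LTM 8 h, and 7.64 and 7.80 on LTM 24 h. For both, the LTM 24 h arrays stood more than 1 log2 unit below every other array. CHCHD1 was 3.83-fold lower than control (log2 fold change -1.94, SE 0.19, limma adjusted p = 7.04e-05) and CHCHD5 2.74-fold lower (-1.45, SE 0.16, adjusted p = 0.000114).

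CHCHD7 went the other way. Probe ILMN_2324375 was at 5.98 and 5.57 on control, 6.07, 6.59 and 6.38 on TFT 8 h, 5.97 and 5.98 on TFT 24 h, 6.25, 6.45 and 6.14 on LTM 8 h, and 6.93 and 6.98 on LTM 24 h. The second probe, ILMN_1744138, was at 8.96 and 8.87 on control and 9.95 and 9.85 on LTM 24 h. Both probes were highest on the LTM 24 h arrays, by 2.26-fold (SE of the log2 fold change 0.20, limma adjusted p = 0.00111) and 1.98-fold (SE 0.15, adjusted p = 0.00059) over control. CHCHD3 and CHCHD6 are subunits of MICOS, the complex that shapes the folds of the inner membrane. CHCHD6 fell by 0.63 on the log2 scale (limma adjusted p = 0.00763), a call lost without LTM 24 h replicate 2 (adjusted p = 0.0666). CHCHD3 was at 9.71 and 9.73 on control, 9.97, 9.98 and 9.51 on TFT 8 h, 9.93 and 9.77 on TFT 24 h, 9.78, 9.43 and 9.39 on LTM 8 h, and 9.93 and 9.53 on LTM 24 h. Its LTM 24 h arrays lay on both sides of control, and the difference of 0.01 did not pass (SE 0.22, limma adjusted p = 0.988). CHCHD4, the import receptor of this route, was at 10.87 and 11.04 on control, 11.32, 11.36 and 11.53 on TFT 8 h, 11.40 and 11.26 on TFT 24 h, 11.22, 11.51 and 11.56 on LTM 8 h, and 11.58 and 11.06 on LTM 24 h. All 10 treated arrays were above control, and the LTM 24 h difference of 0.36 did not pass (limma adjusted p = 0.172).

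**Figure D4:**
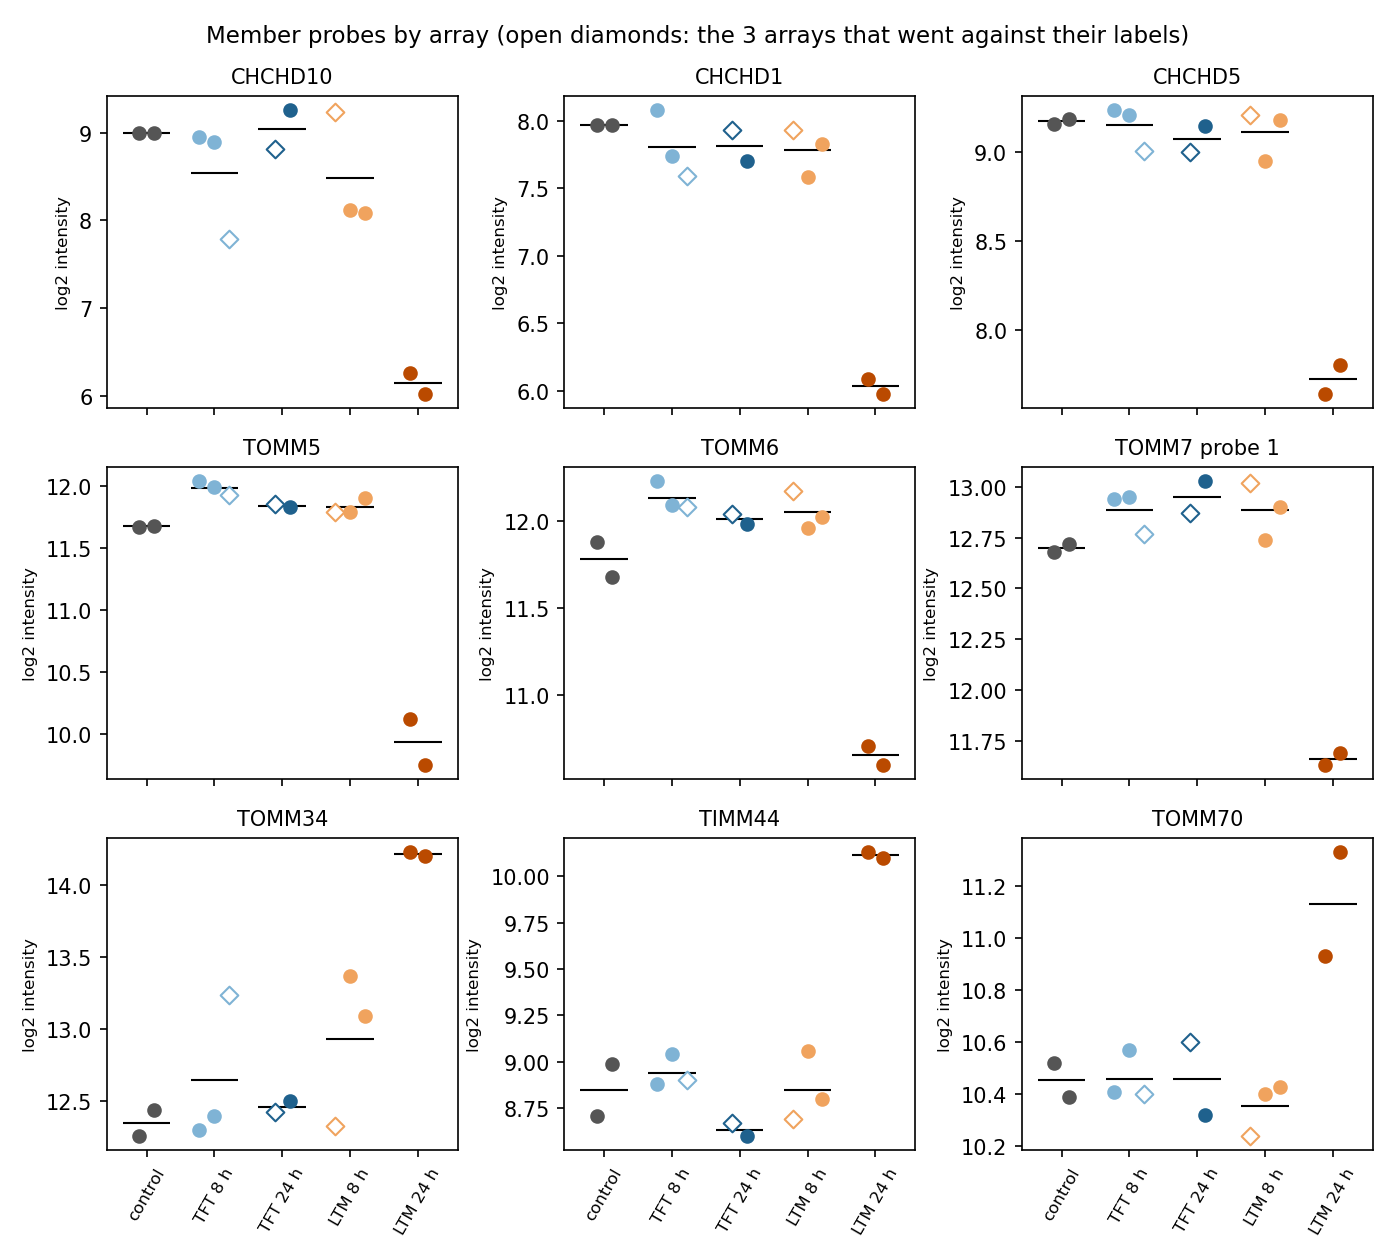
Log2 intensity of CHCHD10, CHCHD1, CHCHD5, TOMM5, TOMM6, TOMM7 (probe ILMN_1674069), TOMM34, TIMM44 and TOMM70 on each array by labelled group (points are arrays, lines are group means, open diamonds are the 3 arrays that went against their labels). In every panel both LTM 24 h points lie beyond all other arrays, below them for the first 6 genes and above them for the last 3.

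LTM for 8 h was compared with control next. Among the small TIM chaperones and TIM22 subunits, TIMM8A, TIMM9, TIMM10, TIMM10B, TIMM22 and TIMM29 were higher on LTM 8 h replicates 2 and 3 than on both control arrays, and TIMM8B was not. The array labelled LTM 8 h replicate 1 was above both control arrays for TIMM8A, TIMM9 and TIMM10 and not for TIMM10B, TIMM22 and TIMM29. TIMM10B, a small TIM bound to the TIM22 complex, was at 6.94 and 7.11 on control, 7.22, 7 and 7.82 on TFT 8 h, 6.95 and 6.94 on TFT 24 h, 7.10, 8.04 and 7.81 on LTM 8 h, and 7.52 and 7.22 on LTM 24 h. TIMM29 was at 9.28 and 9.40 on control, 9.18, 9.26 and 9.85 on TFT 8 h, 9.01 and 9.29 on TFT 24 h, 9.22, 9.90 and 10.02 on LTM 8 h, and 9.04 and 8.79 on LTM 24 h. TIMM22 was at 9.99 and 10.16 on control, 10.01, 10.08 and 10.53 on TFT 8 h, 10.05 and 9.92 on TFT 24 h, 9.94, 10.60 and 10.52 on LTM 8 h, and 10.44 and 10.27 on LTM 24 h. In all 3 genes the array labelled TFT 8 h replicate 3 lay near LTM 8 h replicates 2 and 3.

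As labelled, 0 of 37 member probes and 0% of all probes passed limma for LTM 8 h against control. At an unadjusted p under 0.05 there were 8 member probes, 21.6%, against 15.7% of all probes. On 9 arrays 11 members passed, 10 higher and 1 lower, against 29.8% of all probes in either direction. The 10 higher probes were 27.0% of the members, against 14.4% of all probes. They were TIMM8A (log2 fold change 0.93, limma adjusted p = 0.000925), TIMM10B (0.90, 0.00217), TIMM9 (0.86, 0.00227), TIMM29 (0.61, 0.008), TIMM10 (0.52, 0.0188), TIMM22 (0.49, 0.0192), 1 of the 4 TIMM23 probes (0.57, 0.0175), TOMM34 (0.89, 0.00131), CHCHD4 (0.58, 0.0288) and TOMM40L, a paralog of TOMM40 (0.42, 0.0361). CHCHD10 was the 1 lower probe, 2.7% of the members against 15.4% of all probes, with a log2 fold change of -0.89 (SE 0.13, limma adjusted p = 0.000792). Each of these calls rests on leaving out the 3 arrays, of which 1 is of the LTM 8 h group. These 3 were picked by their profiles in these same data. Without them the median SE of the member log2 fold changes went from 0.17 to 0.14.

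No member passed the test for TFT at either time. For TFT 8 h 0 of 37 probes passed limma on 12 arrays (0% of all probes) and on 9 arrays (1.67% of all probes), with log2 differences from -0.45 to 0.74 on 12 arrays and 7 members at an unadjusted p under 0.05 (against 9.04% of all probes). For TFT 24 h 0 passed on 12 arrays (0% of all probes) and on 9 arrays (0.366% of all probes), with differences from -0.21 to 0.49 and 2 members at an unadjusted p under 0.05 (against 5.08% of all probes). TOMM40L was at 7.98 and 7.85 on control and at 8.32 to 8.45 on all 8 arrays of TFT 8 h, TFT 24 h and LTM 8 h. Its log2 differences were 0.46 for TFT 8 h and 0.48 for TFT 24 h, neither of which passed limma (adjusted p = 0.418 and 0.939).

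Groups that did not overlap with control were counted as well. Member probes with every treated array above both control arrays were 15 for TFT 8 h (40.5%, against 15.0% of all probes), 16 for TFT 24 h (43.2%, against 21.5%), 14 for LTM 8 h (37.8%, against 15.9%) and 15 for LTM 24 h (40.5%, against 35.1%). In this order they belonged to 11, 14, 11 and 13 genes, and probes of the same gene are not independent. Probes with every treated array below control were 2 for TFT 8 h (5.41%, against 17.8% of all probes) and 5 for TFT 24 h (13.5%, against 22.6%). They were 2 for LTM 8 h (5.41%, against 19.9%) and 15 for LTM 24 h (40.5%, against 39.4%). All these counts use the same 2 control arrays, so they are not independent of each other.

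The drugs were compared directly at each time. At 24 h, 17 member probes differed between LTM and TFT by limma, 5 higher with LTM (against 19.9% of all probes) and 12 lower (against 20.3%), where 40.2% of all probes differed in either direction, and 20 differed on 9 arrays (against 49.2% of all probes). On 12 arrays the higher and lower probes were 13.5% and 32.4% of the members. The log2 differences of LTM from TFT were -2.89 for CHCHD10 (SE 0.42, limma adjusted p = 0.000453), -1.91 for TOMM5 (SE 0.16, adjusted p = 4.56e-05) and -1.78 for CHCHD1 (SE 0.19, adjusted p = 0.00012). TIMM44 and TOMM34 were higher with LTM by 1.48 and 1.75 (limma adjusted p = 0.000145 and 0.00225). At 8 h 0 members (0% of all probes) passed as labelled, 0 members and 3.47% of all probes were at an unadjusted p under 0.05, and on 9 arrays 7 members passed, against 27.2% of all probes. Of these, 5 were higher with LTM (against 13.7% of all probes) and 2 lower (against 13.5%). They were TIMM8A (0.78), TIMM10B (0.82), TIMM29 (0.74), TIMM22 (0.51) and TOMM34 (0.88) higher with LTM, and CHCHD10 (-0.82) and CHCHD3 (-0.56) lower, with limma adjusted p between 0.00148 and 0.019.

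Time of LTM was compared last. From 8 h to 24 h, 18 member probes changed by limma, 5 upward (against 17.1% of all probes) and 13 downward (against 16.3%), where 33.4% of all probes changed in either direction, and 20 on 9 arrays (against 43.3% of all probes). TIMM10 fell by 1.04 on the log2 scale between the times (SE 0.17, limma adjusted p = 0.000806), and TIMM29 by 0.80 (SE 0.26, adjusted p = 0.0346). The TIMM29 call was lost without any 1 of control replicates 1 and 2, LTM 8 h replicates 2 and 3 and LTM 24 h replicates 1 and 2 (adjusted p between 0.051 and 0.221), and on 9 arrays it fell by 1.04 (SE 0.14, adjusted p = 0.000225). TOMM34 rose by 1.28 (SE 0.31, limma adjusted p = 0.00856), a call lost without LTM 24 h replicate 1 or 2 (adjusted p = 0.054 and 0.0639) and with median scaling (0.71, adjusted p = 0.0552). TOMM5, TOMM6, CHCHD1 and CHCHD5 fell by 1.89, 1.39, 1.75 and 1.39 on the log2 scale (limma adjusted p between 2.04e-05 and 9.25e-05). For TFT, 0 members (0% of all probes) changed between 8 h and 24 h as labelled, 0 members and 2.89% of all probes were at an unadjusted p under 0.05, and 0 passed on 9 arrays (0.608% of all probes). The change from 8 h to 24 h differed between LTM and TFT for 14 member probes by the interaction term of the limma fit, 4 higher and 10 lower, against 22.5% of all probes (11.4% higher and 11.1% lower). On 9 arrays the term passed for 15 members, against 27.9% of all probes.

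Lists of other mitochondrial genes were read beside the members for LTM 24 h against control, by the probe of highest mean intensity of each gene. Of 21 measured import partners, 5 rose and 5 fell by limma, beside 20.0% of all probes higher and 20.9% lower, and their median log2 fold change was 0.10. Such shares, here and for the lists below, are over all kept probes, with or without a gene name. In a limma fit of 1 probe per named gene, 5751 of 12131 genes passed for LTM 24 h against control in either direction. Shares among genes of like brightness were not taken. HSPA9, the matrix HSP70 that pulls precursors through TIM23, rose by 1.31 (SE 0.16, limma adjusted p = 0.000156), GRPEL2, a nucleotide exchange factor of that motor, by 1.13 (adjusted p = 0.0439) and IMMP2L, an inner membrane peptidase, by 1.08 (adjusted p = 0.00807). HSPE1, the matrix co-chaperonin, fell by 2.01 (SE 0.28, limma adjusted p = 0.000321), PAM16, a subunit of the import motor, by 1.37 (adjusted p = 6.74e-05) and MTX1, an outer membrane metaxin, by 0.76 (adjusted p = 0.00452).

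A list of MICOS subunits and proteins with paired cysteine motifs, which also held the inner membrane GTPase OPA1 and the cytochrome oxidase assembly factor PET100, had 17 measured genes. Of these, 13 fell and 2 rose by limma, beside 20.9% of all probes lower and 20.0% higher, with a median log2 fold change of -1.07 against -0.05 over all probes. MICOS13, a cristae junction protein, fell by 2.26 (SE 0.19, limma adjusted p = 3.6e-05). NDUFB7, a subunit of respiratory complex I, fell by 2.18 (adjusted p = 5.7e-05), and COA6, an assembly factor of cytochrome oxidase, by 1.69 (adjusted p = 0.0011). IMMT, the core MICOS subunit, and APOOL each rose by 0.68 (limma adjusted p = 0.00581 and 0.0138). Of 10 measured quality control genes, 5 rose and 2 fell by limma, beside the same shares of all probes, with a median of 0.31. On 9 arrays 5 rose and 4 fell. The unfoldase CLPX rose by 1.37, its protease partner CLPP fell by 1.68, the inner membrane protease YME1L1 rose by 1.09, the rhomboid protease PARL rose by 1.06 and the matrix protease LONP1 fell by 0.76 (limma adjusted p between 0.000382 and 0.0117). In the other 3 comparisons with control as labelled, 0 genes of the 3 lists passed limma. On 9 arrays of LTM 8 h against control, 3 import partners were higher and 2 lower, 2 and 2 of the MICOS and paired cysteine list, and 0 and 3 of the quality control list, beside 14.4% of all probes higher and 15.4% lower.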

How the data were processed

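The members, lists and tests were chosen with earlier results of these data known. The authors' scanner table held a linear signal intensity per probe, made with GenomeStudio per the submitters' processing notes, and holding values below 0, as background subtraction gives. Beside each intensity stood the detection p-value of that probe, per the file headers. A second deposited table held the authors' processed intensities of 38223 probes and served only as an alternative, since its normalization is not stated. Per the labels' protocols, 300 ng of RNA was labelled with biotin. Each column was tied to its array through the sample names, and precision is limited by the small number of arrays.

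Intensities were background-corrected with neqc of limma 3.58.1 in R 4.3.3 (background from the detection p-values, offset 16, quantile normalization, log2), and the 24325 probes detected on at least 2 arrays were kept. Gene symbols came from the platform's annotation (27004 probes with 1 symbol, 4 with several, and 11215 of the processed table not listed), and 8371 of the kept probes have no name here. Group means of all 12 arrays entered 1 fit (lmFit and eBayes, two-sided, 7 residual degrees of freedom, 4 with 9 arrays), with Benjamini-Hochberg adjustment over the 24325 probes and a threshold of 0.05. The fits were tested on simulated data. Simulated probes varied independently under the labels as given, so that test does not bear on the 3 arrays that went against their labels. Values on every array are given for the probes that passed with a log2 fold change of at least 1 in size. They are also given for 19 genes chosen by role, except TIMM50, which had no named probe, and TIMM13, whose probe was not kept. From each list the 3 largest rises and falls that passed are named.

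Whether replicate numbers pair the samples could not be decided. Deviations of same-numbered arrays from their group means correlated at -0.53 to 0.63, over 0.1 in 4 of 21 pairs. For different numbers the range was -0.76 to 0.66, over 0.1 in 8 of 36 pairs. Where a group had only a pair of arrays, their deviations were mirror images by construction. The extreme values all lay between TFT 8 h and LTM 8 h, which each hold an array that went against its label.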

Additional observations from a re-analysis of the deposited data

Results flagged for a closer look

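For 14 member probes the change from 8 h to 24 h differed between LTM and TFT, by the interaction term of the limma fit (22.5% of all probes). Of these, 4 were higher (against 11.4% of all probes) and 10 lower (against 11.1%), and with median scaling 2 were higher and 11 lower. On 9 arrays 15 members passed (27.9% of all probes). Leaving out single arrays gave 8 to 14, with 8 both without TFT 24 h replicate 2 and without LTM 24 h replicate 2.

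The largest negative terms belonged to CHCHD10 (-2.82 log2 units, limma adjusted p = 0.00524), CHCHD1 (-1.76, 0.00162), TOMM5 (-1.74, 0.000919), CHCHD5 (-1.32, 0.0024), the TOMM7 probes (-1.29 and -1.23, 0.00214 and 0.00428) and TOMM6 (-1.27, 0.00218). Smaller ones belonged to TIMM17B (-0.94, limma adjusted p = 0.0116), TIMM10 (-0.90, 0.0205) and CHCHD6 (-0.75, 0.0218). Positive terms belonged to TIMM44 (1.57, limma adjusted p = 0.00156), TOMM34 (1.46, 0.0355, and 0.83 on 9 arrays, 0.0213), CHCHD7 probe ILMN_2324375 (1.04, 0.0171) and TOMM70 (0.77, 0.0347). TOMM34 and TOMM70 passed under 12 and 11 of 21 alternatives, with adjusted p up to 0.125 and 0.151. CHCHD6, TIMM10 and TIMM17B passed under 18, 18 and 19 of 21, and CHCHD7 probe ILMN_2324375 under 17 of 20. The second CHCHD7 probe, ILMN_1744138, had a term of 0.52 that did not pass (limma adjusted p = 0.0822). Each interaction term named here contains arrays that went against their labels in 3 of its 4 groups. The count was 14 without TFT 8 h replicate 3, 10 without TFT 24 h replicate 1 and 13 without LTM 8 h replicate 1.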

How the results depend on the processing

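Of 81 single-probe results, 66 passed the threshold, and none of the 66 changed direction under the alternatives run. Many alternatives could not change direction, because they altered only the probes tested, the spread or arrays outside the comparison. In those the fold change was the same by construction. Of 1689 values under alternatives, 1579 kept direction and side of the threshold. The 9-array fit gave 11 members instead of 0 for LTM 8 h against control and 7 instead of 0 for LTM 8 h against TFT 8 h. Leaving out single arrays gave 0 to 1 for LTM 8 h against control (1 without LTM 8 h replicate 1), 12 to 19 for LTM 24 h against control, 13 to 19 for LTM 24 h against TFT 24 h, 12 to 19 for LTM 24 h against LTM 8 h (each lowest without LTM 24 h replicate 2), 8 to 14 for the interaction and 0 for the other 4 comparisons. With the replicate number as a block the counts were 19, 18, 18 and 14 for LTM 24 h against control, TFT 24 h and LTM 8 h and for the interaction, and 0 for the others, and TIMM8A and TIMM9 then passed for LTM 24 h against control (adjusted p = 0.0215 and 0.0286). Median scaling moved the median of all probes from -0.05 to -0.17 for LTM 24 h against TFT 24 h and from -0.04 to -0.20 for LTM 24 h against LTM 8 h. The differences of LTM 24 h from control that changed sign had not passed. They were CHCHD3 (-0.07 with median scaling, -0.02 in the authors' processed table, -0.01 without control replicate 1, and -0.19 to 0.20 over all single arrays left out), TIMM17A (-0.04 to 0.45 over single arrays), TIMM23 (-0.19 and -0.07 for ILMN_1679555 and ILMN_1773493 with median scaling, and over single arrays -0.25 to 0.37 for ILMN_1673746, including 0 without control replicate 1, and -0.02 to 0.21 for ILMN_1773493) and TOMM20 (-0.16 and -0.41 with median scaling), and the cause was not tested.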
